A study of Mus musculus with 8 samples.

Results

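The genes of the circadian clock were examined in cultured hippocampal neurons that received melanin-concentrating hormone (MCH), a peptide of hypothalamic neurons that are active during sleep. The 10 genes described here, *Per1*, *Per2*, *Per3*, *Cry1*, *Cry2*, *Dbp*, *Ciart*, *Nr1d1*, *Nr1d2* and *Clock*, were taken by name from the 45706 genes of the deposited table, and all 10 passed the filter on low counts that left 14962 genes for testing. The neurons came from C57/Bl6 wild-type mouse embryos at day 18, were treated for 4 h with 1 µM MCH or with its vehicle (H2O), at 12 to 14 days in vitro. There were 4 vehicle-treated and 4 MCH-treated wells, numbered as replicates 1 to 4 of each treatment, with 2 wells per treatment in each of 2 independent cultures. The labels carry a tag for an Alzheimer's disease model as well, although their genotype entry is wild type for every well. The culture that a replicate came from is given in neither the labels nor the methods, and *P* values measure the spread between wells.

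The mammalian clock is a feedback loop of transcription. The proteins CLOCK and BMAL1 (gene *Arntl*) bind E-boxes and drive the *Per* and *Cry* genes, whose proteins then repress CLOCK and BMAL1. The same E-box drive acts on *Dbp*, *Ciart*, *Nr1d1* and *Nr1d2*, and the nuclear receptors REV-ERBα (*Nr1d1*) and REV-ERBβ (*Nr1d2*) repress *Arntl* and other genes through ROR elements (ROREs). *Per1* and *Per2* have a further input, in that calcium and cyclic AMP act on them through CREB, the factor that binds cyclic AMP response elements (CREs), which is how light and neuronal activity reach the clock. In the hippocampus, clock genes cycle in pyramidal neurons and *Per1* behaves as an activity-regulated gene.

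Promoter sequences from RefSeq on GRCm38.p6, 250 bases before to 50 after each annotated start, were matched for 9 of the 10 genes (12 windows), all but *Per2*. They are shown for 4 genes whose wells separated by treatment, *Per1* (both of its windows), *Cry1*, *Cry2* and *Nr1d1*, and for *Per3* and *Ciart*, whose wells did not and which carry other clock motifs. Each run is written 5′ to 3′ on the strand of the gene, covers the bases before the start that no annotated exon overlaps, and has every match to a searched motif in capitals on either strand.
*Per1*, upstream start, chr11:69098699-69098947, plus strand: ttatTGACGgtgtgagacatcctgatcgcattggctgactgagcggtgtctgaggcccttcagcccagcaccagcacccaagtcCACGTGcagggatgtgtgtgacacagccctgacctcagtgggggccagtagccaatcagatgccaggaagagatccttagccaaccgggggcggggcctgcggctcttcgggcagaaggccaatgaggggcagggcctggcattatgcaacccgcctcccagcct
*Per1*, downstream start, chr11:69099902-69100151, plus strand: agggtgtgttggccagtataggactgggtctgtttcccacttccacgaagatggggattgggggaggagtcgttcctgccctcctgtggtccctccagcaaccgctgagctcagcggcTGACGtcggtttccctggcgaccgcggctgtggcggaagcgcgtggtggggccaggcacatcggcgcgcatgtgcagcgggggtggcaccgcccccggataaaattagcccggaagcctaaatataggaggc
*Cry1*, chr10:85185065-85185304, minus strand: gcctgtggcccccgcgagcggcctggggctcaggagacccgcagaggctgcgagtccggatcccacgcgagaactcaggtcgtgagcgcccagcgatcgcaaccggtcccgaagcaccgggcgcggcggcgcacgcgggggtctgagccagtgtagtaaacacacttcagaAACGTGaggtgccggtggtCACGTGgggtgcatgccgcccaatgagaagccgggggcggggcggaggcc
*Cry2*, chr2:92434070-92434319, minus strand: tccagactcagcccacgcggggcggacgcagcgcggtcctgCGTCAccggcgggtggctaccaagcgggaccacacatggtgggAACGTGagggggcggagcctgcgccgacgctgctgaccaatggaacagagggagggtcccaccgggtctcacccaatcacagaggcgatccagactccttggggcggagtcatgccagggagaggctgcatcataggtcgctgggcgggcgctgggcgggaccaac
*Nr1d1*, chr11:98775378-98775627, minus strand: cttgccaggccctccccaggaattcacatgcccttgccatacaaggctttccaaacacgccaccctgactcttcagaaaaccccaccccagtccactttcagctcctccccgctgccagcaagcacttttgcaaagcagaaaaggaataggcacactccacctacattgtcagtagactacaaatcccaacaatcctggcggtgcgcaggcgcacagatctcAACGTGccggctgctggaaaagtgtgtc
*Per3*, chr4:151044666-151044915, minus strand: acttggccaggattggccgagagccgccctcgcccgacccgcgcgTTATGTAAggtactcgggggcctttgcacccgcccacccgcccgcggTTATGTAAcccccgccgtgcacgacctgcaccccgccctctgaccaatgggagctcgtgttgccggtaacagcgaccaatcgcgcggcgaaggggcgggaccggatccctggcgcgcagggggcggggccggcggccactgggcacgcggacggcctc
*Ciart*, chr3:95882252-95882478, minus strand: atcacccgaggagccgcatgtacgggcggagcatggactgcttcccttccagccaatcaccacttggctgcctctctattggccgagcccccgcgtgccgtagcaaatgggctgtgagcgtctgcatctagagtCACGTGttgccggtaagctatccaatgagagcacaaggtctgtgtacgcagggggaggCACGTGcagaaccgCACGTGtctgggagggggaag
The motifs were the CRE (TGACGTCA), the CRE core (TGACG, which the full CRE contains), the E-box (CACGTG), the E′-box (CACGTT), both forms of the D-box (TTATGTAA and TTACGTAA), and the RORE core (TAGGTCA). The CRE core was present in both *Per1* windows and in those of *Cry1* and *Cry2*, and it was found in 20.8% of all 32851 windows of the table. In *Cry1* it lies at −8, inside an annotated exon and so outside the run above. The full CRE, found in 1.79% of all windows, was in no window of these 9 genes. E-boxes occurred once in the upstream *Per1* window, once in *Cry1* and 3 times in *Ciart* (7.15% of all windows), E′-boxes in *Cry1*, *Cry2* and *Nr1d1* (4.68%), and the D-box TTATGTAA 2 times in *Per3* (0.938%). The other form of the D-box (0.119%) and the RORE core (2.61%) matched none. The windows of *Dbp*, *Nr1d2* and *Clock* held none of these motifs. These matches describe the letters of the windows only.

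The levels of the clock genes were compared per length, as TPM, which salmon scaled for transcript length and depth. In vehicle-treated wells *Cry2* was highest, at 97.6 ± 2.69 TPM (mean ± SD, n = 4 wells), followed by *Per1* at 69.99 ± 5.08 TPM, *Nr1d1* at 27.7 ± 3.16 TPM, *Clock* at 18.3 ± 1.21 TPM and *Nr1d2* at 15.2 ± 0.621 TPM. The ranges of these 5 genes over the vehicle-treated wells did not meet those of their neighbors in this order. *Per2* (9.32 ± 0.674 TPM), *Cry1* (8.53 ± 0.5065 TPM), *Ciart* (7.14 ± 1.33 TPM) and *Dbp* (5.435 ± 1.44 TPM) came next, each with a range that overlapped that of its neighbor among these 4. *Per3* was lowest, at 1.31 ± 0.223 TPM, apart from *Dbp*. For *Dbp* the transcripts matched to the annotation held 66.3% to 97.8% of the gene's reads, depending on the well, so its TPM is a lower estimate, and for the other 9 genes they held all of them.

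**Figure D1:**
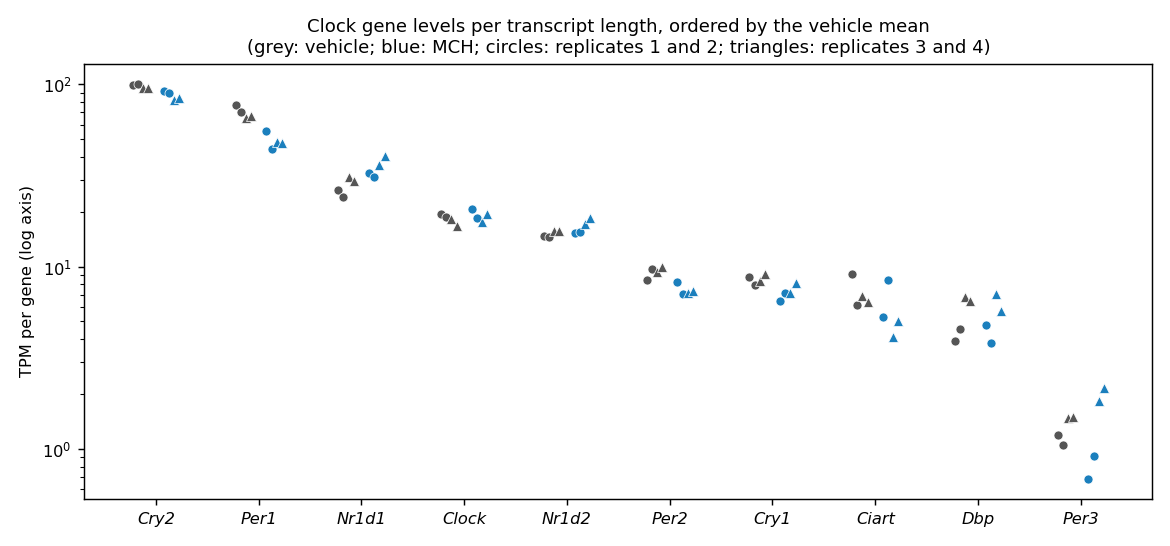
TPM per gene in each of the 8 wells on a log axis, with the genes ordered by their mean in vehicle-treated wells; grey is vehicle, blue is MCH, circles are replicates 1 and 2, and triangles are replicates 3 and 4. Levels run from 100.9 TPM of *Cry2* in vehicle replicate 2 down to 0.683 TPM of *Per3* in MCH replicate 1.

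Totals ranged from 26083936 to 31844861 estimated counts per well. Markers of neurons summed to 6109 to 7095 CPM (counts relative to the scaled library size), those of inhibitory neurons to 1634 to 2049 CPM and those of microglia to at most 5.55 CPM, and no marker was at 0 in all wells. The 8 wells formed 2 sets, replicates 1 and 2 against replicates 3 and 4, along the first principal component of the log2 CPM once treatment means were removed (59.8% of the variance). Whether these sets are the 2 cultures is not given in the sources used here, and in either case the 4 wells of a treatment stand for 2 cultures. Astrocyte markers summed to 284 to 384 CPM in replicates 1 and 2 and to 1261 to 1420 CPM in replicates 3 and 4. The MCH receptor gene *Mchr1* had 9.91 ± 0.820 CPM in vehicle-treated and 9.70 ± 0.297 CPM in MCH-treated wells (SD, n = 4 each), and *Pmch*, which encodes MCH, had 1 count in 1 well and 0 in the other 7.

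For the comparison of MCH with vehicle, counts were rounded, scaled with TMM factors and tested in edgeR by quasi-likelihood, the *P* values being adjusted after Benjamini and Hochberg over all genes tested, and a gene with an adjusted *P* value under 0.05 is called DE. None of the 10 clock genes was DE in this fit, against 0.234% of all genes tested. Their log2 fold changes were below 0 in 5 and above 0 in 5, and 51.0% of all genes were below 0. Of the 10, 5 had an unadjusted *P* value under 0.05 (8.5% of all genes). DESeq2 without a block called 3, *Per1*, *Per2* and *Cry2*, all lower. It called 1.25% of the 12540 genes to which it gave an adjusted *P* value (0.742% lower and 0.51% higher). With limma voom 0 of the 10 were called, and 28 of all 14962 genes. Both treatments carry the same replicate numbers, and same-numbered wells deviated together, as did wells of the same set with different numbers. The fit with the replicate number as a block is given for each of the 10 genes, although these deviations do not tell the numbers within a set apart. A same-numbered pair is thus a pair by label only. With that block 5 of the 10 genes were DE, *Per1*, *Per2*, *Cry1* and *Cry2* lower and *Nr1d1* higher with MCH, against 3.98% of all genes tested (2.25% lower and 1.73% higher). The same 5 genes were those in which vehicle-treated and MCH-treated wells did not overlap at all, which held for 6.03% of all genes (2.96% lower and 3.07% higher). With the set as a block (4.46% of all genes DE, 2.61% lower and 1.85% higher), these 5 genes were DE too.

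**Figure D2:**
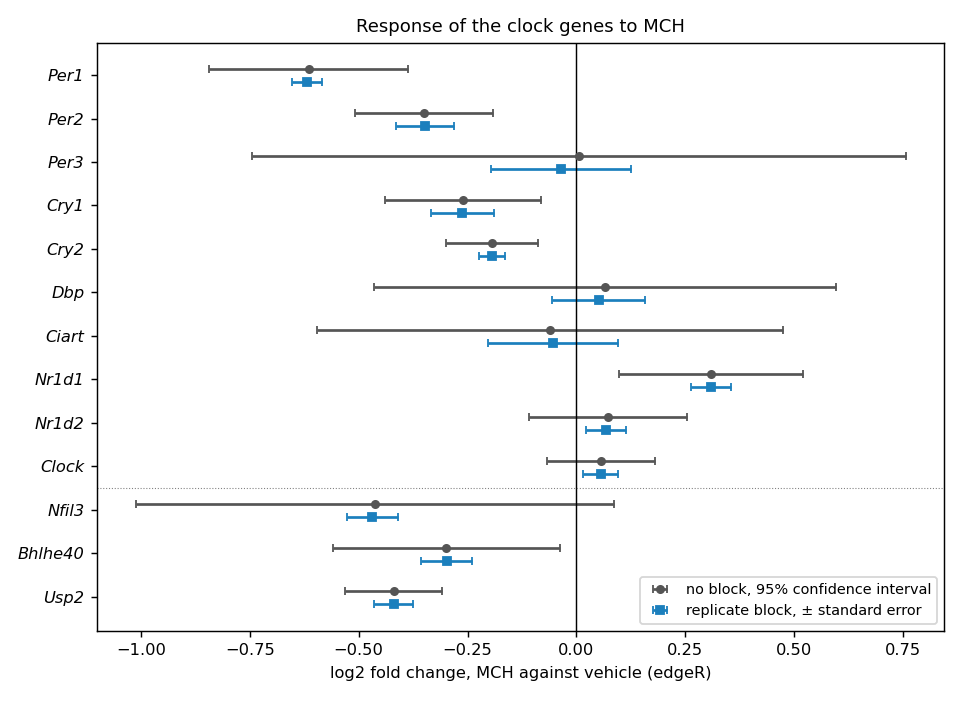
Log2 fold change of MCH against vehicle in edgeR, for the 10 clock genes and, under the dotted line, 3 other genes of the pathway; grey circles are the fit without a block with 95% confidence intervals, and blue squares the fit with the replicate block with standard errors. *Per1* lies lowest among the 10 clock genes at −0.615, and *Nr1d1* highest at 0.31.

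*Per1* (ENSMUSG00000020893, chromosome 11 of GRCm38, 69095217 to 69109960), a repressor of the loop and the member best known as a CREB target, was 151, 149.6, 129.8 and 125 CPM in vehicle replicates 1 to 4. It was 105, 94.9, 85.8 and 77.4 CPM in MCH replicates 1 to 4. The highest MCH-treated well was under the lowest vehicle-treated well, and within each treatment replicates 3 and 4 were below replicates 1 and 2. The means were 139 ± 13.4 and 90.65 ± 11.7 CPM (SD, n = 4). The log2 fold change was −0.615 (standard error 0.10, 95% confidence interval −0.84 to −0.39, adjusted *P* = 0.069 in edgeR). With the replicate block *Per1* fell by 0.62 on the log2 scale (standard error 0.035, adjusted *P* = 1.49e-08 in edgeR). Without MCH replicate 1, the adjusted *P* value of the fit without a block was 0.0441, and with any other single well left out it was 0.114 to 0.279 (edgeR). With an offset for transcript length the log2 fold change of *Per1* was −0.54 (adjusted *P* = 0.127, edgeR). Within replicates 1 and 2 the mean log2 CPM differed by −0.59, and within replicates 3 and 4 by −0.64. The study itself marked *Per1* in these libraries, so its place here is not independent evidence. In bulk wells, fewer cells that express a gene and less RNA per cell cannot be told apart.

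*Per2* (ENSMUSG00000055866, chromosome 1, 91415982 to 91459324), the other *Per* gene with a CREB input, was 27.8, 32.5, 30.4 and 32.7 CPM in vehicle replicates 1 to 4. With MCH it was 26.8, 23.0, 23.25 and 23.8 CPM. The wells did not overlap, although MCH replicate 1 and vehicle replicate 1 lay close together. The log2 fold change was −0.35 (standard error 0.070, 95% confidence interval −0.51 to −0.19, adjusted *P* = 0.126 without and 0.00837 with the replicate block, edgeR). Replicates 1 and 2 alone gave −0.28, and replicates 3 and 4 alone −0.42. *Per3* (ENSMUSG00000028957, chromosome 4, 151003652 to 151044665), the least abundant of the family and without the acute light response of the others, had 70 to 172 counts per well. Its vehicle-treated wells held 3.99, 2.83, 4.935 and 5.09 CPM. Its MCH-treated wells held 2.24, 3.04, 5.95 and 5.69 CPM. The wells of the treatments overlapped and parted by replicate number instead. The log2 fold change of 0.0054 had a 95% confidence interval from −0.75 to 0.76 (adjusted *P* = 1.00 without and 0.943 with the replicate block, edgeR). Replicates 1 and 2 alone gave −0.36, and replicates 3 and 4 alone 0.21.

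**Figure D3:**
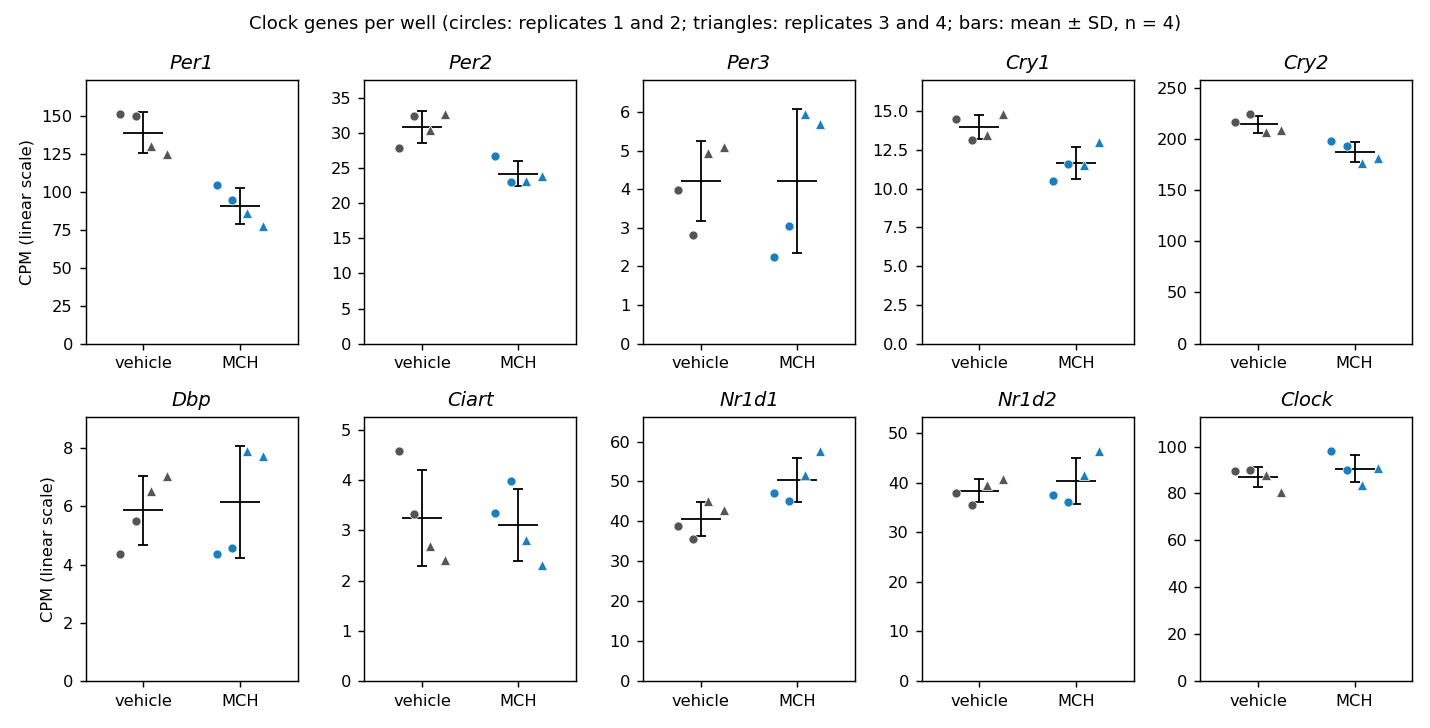
CPM on a linear axis from 0 in each well for the 10 clock genes; grey is vehicle, blue is MCH, circles are replicates 1 and 2, triangles are replicates 3 and 4, and bars are mean ± SD (n = 4 wells). The MCH-treated wells lie below all vehicle-treated wells in *Per1*, *Per2*, *Cry1* and *Cry2* and above them in *Nr1d1*, where the nearest wells are 44.98 and 45.01 CPM.

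The *Cry* genes encode the cryptochromes, which bind PER proteins and carry most of the repression of CLOCK and BMAL1. *Cry1* (ENSMUSG00000020038, chromosome 10, 85131700 to 85185064) was 14.5, 13.2, 13.5 and 14.8 CPM in vehicle replicates 1 to 4, and *Cry2* (ENSMUSG00000068742, chromosome 2, 92403646 to 92434043) was 217, 225, 207 and 209 CPM. With MCH *Cry1* was 10.5, 11.6, 11.6 and 13.02 CPM. *Cry2* was 198.5, 194, 177 and 181 CPM in the same wells. Neither gene's treatments overlapped, but in *Cry1* the highest MCH-treated well (13.02 CPM) was just under the lowest vehicle-treated well (13.16 CPM). The log2 fold changes were −0.26 for *Cry1* (standard error 0.080) and −0.19 for *Cry2* (standard error 0.047). In edgeR the adjusted *P* value of *Cry1* was 0.3605 without and 0.0492 with the replicate block, and that of *Cry2* was 0.216 without and 0.000905 with it. DESeq2 without a block called *Cry2* (adjusted *P* = 0.0398) and not *Cry1* (adjusted *P* = 0.262). Within replicates 1 and 2 the mean log2 CPM of *Cry1* differed by −0.32, and within replicates 3 and 4 by −0.20, while *Cry2* had −0.17 and −0.22.

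Among the clock genes with log2 fold changes above 0, only *Nr1d1* (ENSMUSG00000020889, chromosome 11, 98767932 to 98775333), which encodes REV-ERBα, was DE with the replicate block. Its vehicle-treated wells held 38.8, 35.6, 44.98 and 42.95 CPM, and its MCH-treated wells 47.0, 45.01, 51.7 and 57.5 CPM. The wells did not overlap over all 8, but vehicle replicate 3 and MCH replicate 2 were almost level, and within each set the gap was wider. The means of 40.6 ± 4.2 and 50.3 ± 5.56 CPM (SD, n = 4) gave a log2 fold change of 0.31 (standard error 0.094, 95% confidence interval 0.099 to 0.52, adjusted *P* = 0.358 without and 0.000595 with the replicate block, edgeR). Both sets of wells gave 0.31 when taken alone, and each same-numbered pair of wells was higher with MCH, by 0.20 to 0.42. An exon of *Thra* on the opposite strand shares 263 of the 3077 exonic bases of *Nr1d1*, and the libraries were made with a stranded kit. *Nr1d2* (ENSMUSG00000021775, chromosome 14, 18204054 to 18239127), for REV-ERBβ, was 37.99, 35.4, 39.45 and 40.8 CPM with vehicle and 37.5, 36.1, 41.6 and 46.3 CPM with MCH. Its treatments overlapped, and the log2 fold change of 0.072 had a 95% confidence interval from −0.11 to 0.25 (adjusted *P* = 0.913 without and 0.48 with the replicate block, edgeR). The log2 ratio of *Nr1d1* to *Nr1d2* in the same well was 0.075 ± 0.081 with vehicle and 0.32 ± 0.0066 with MCH (SD, n = 4), without overlap. *Nr1d1* alone did not overlap either, and the share of all genes whose ratio to it parts by treatment was not computed.

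*Dbp* and *Ciart* are output genes with strong E-box drive. *Dbp* (ENSMUSG00000059824, chromosome 7, 45705088 to 45710203) encodes a transcription factor that binds D-boxes and was 4.38, 5.51, 6.52 and 7.06 CPM with vehicle and 4.38, 4.58, 7.89 and 7.72 CPM with MCH. *Ciart* (ENSMUSG00000038550, chromosome 3, 95878503 to 95882251) encodes CHRONO, a repressor of CLOCK and BMAL1, and was 4.57, 3.33, 2.68 and 2.415 CPM with vehicle and 3.35, 3.98, 2.80 and 2.32 CPM with MCH. In both, the treatments overlapped and the wells parted by set. The 95% confidence intervals of their log2 fold changes were −0.46 to 0.60 around 0.065 for *Dbp* and −0.60 to 0.47 around −0.061 for *Ciart* (adjusted *P* = 1.00 in both, edgeR without a block). With the replicate block the standard error was 0.11 in place of 0.23 for *Dbp* and 0.15 in place of 0.24 for *Ciart*, and neither was DE (adjusted *P* = 0.862 and 0.90, edgeR). The CPM of *Dbp* include its reads outside the matched transcript. That transcript alone had a log2 fold change of −0.049 (standard error 0.26, edgeR without a block). *Sphk2*, on the opposite strand, shares 539 of the 2993 exonic bases of *Dbp*. *Clock* (ENSMUSG00000029238, chromosome 5, 76209868 to 76304792), which encodes the activator that pairs with BMAL1, was 89.8, 90.1, 87.8 and 80.6 CPM with vehicle and 97.9, 90.1, 83.6 and 90.7 CPM with MCH. Its treatments overlapped, and its interval was narrow, −0.067 to 0.18 around a log2 fold change of 0.057 (adjusted *P* = 0.878 without and 0.502 with the replicate block, edgeR).

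To compare the CREB-driven *Per* genes with the E-box and nuclear receptor genes, *Per1* was set against each of the other 9 members as a log2 ratio of CPM in the same well. The ratio of *Per1* to *Nr1d1* was 1.96, 2.07, 1.53 and 1.54 in vehicle replicates 1 to 4 and 1.153, 1.07, 0.73 and 0.43 in MCH replicates 1 to 4. Its mean was lower by 0.93 with MCH, and all MCH-treated wells were below all vehicle-treated wells (*P* = 0.0286 in a two-sided exact permutation test, whose lowest possible value with 4 against 4 this is). The ratios of *Per1* to *Cry2*, *Ciart*, *Nr1d2* and *Clock* did not overlap either, with the same exact permutation *P* value, and the ratio of *Per1* to a gene was lower without overlap for 70.9% of all genes tested. Their mean differences were −0.42 for *Cry2*, −0.57 for *Ciart*, −0.69 for *Nr1d2* and −0.68 for *Clock*, although for *Ciart* the nearest wells, at 5.025 with vehicle and 5.019 with MCH, were almost level. For *Per2*, *Cry1*, *Dbp* and *Per3* the wells overlapped, with mean differences of −0.27, −0.36, −0.65 and −0.55 and exact permutation *P* values of 0.0857, 0.0857, 0.2 and 0.343, unadjusted over the 9 ratios. In 8 of the 9 ratios *Per1* was lower in all 4 same-numbered pairs of wells, and in *Per1* to *Per3* it was lower in 3 of 4. *Per1* itself differed by −0.69 to −0.53 in these pairs, so a lower ratio follows for any gene that changed little. The share over all genes was not computed for pairs. The ratio of *Per1* to *Per2* overlapped over all 8 wells and did not overlap within either set, with differences of −0.48 to −0.16 in the same-numbered pairs.

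**Figure D4:**
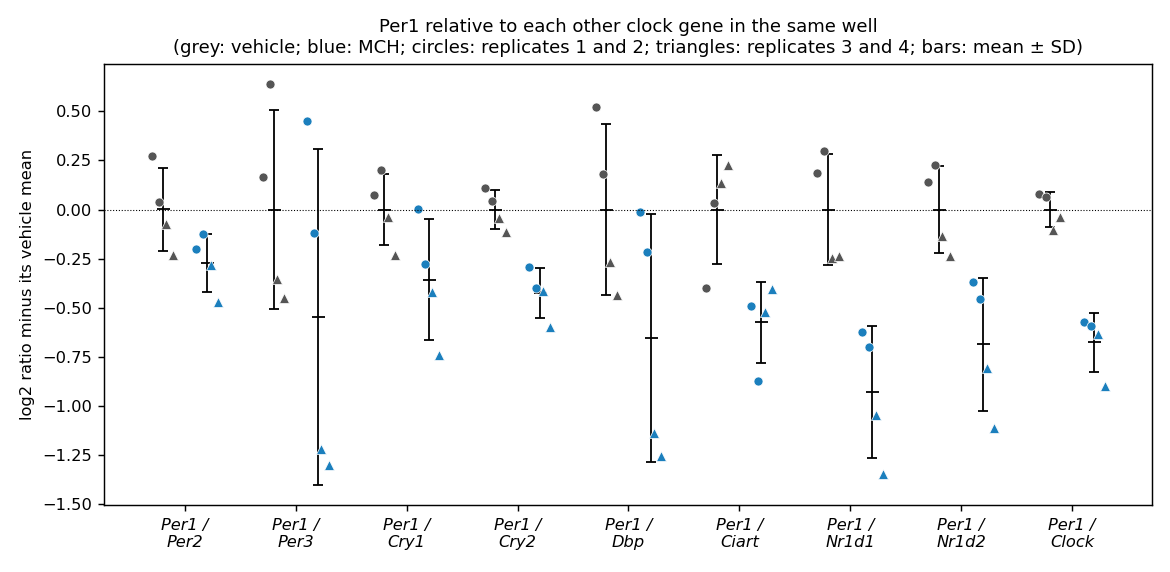
Log2 ratio of *Per1* to each other clock gene in the same well, minus the mean of that ratio in vehicle-treated wells; grey is vehicle, blue is MCH, circles are replicates 1 and 2, triangles are replicates 3 and 4, and bars are mean ± SD (n = 4 wells). The MCH-treated wells lie lowest relative to vehicle for *Per1* over *Nr1d1*, and they overlap the vehicle-treated wells for *Per2*, *Per3*, *Cry1* and *Dbp*.

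A score was taken as the mean log2 CPM of *Per1*, *Per2* and *Per3* minus that of *Dbp*, *Ciart*, *Nr1d1* and *Nr1d2*. It was 0.96, 0.96, 1.01 and 1.06 in vehicle replicates 1 to 4. It was 0.54, 0.52, 0.62 and 0.56 in MCH replicates 1 to 4, lower by 0.44, without overlap. The difference was −0.43 for the lower-numbered and −0.45 for the higher-numbered wells. Without *Per3*, so that *Per1* and *Per2* stood alone against the same 4 genes, it was −0.57, with −0.46 for the lower-numbered and −0.69 for the higher-numbered wells. The median log2 fold change was −0.35 over the *Per* genes, −0.23 over the *Cry* genes and 0.069 over *Dbp*, *Ciart*, *Nr1d1* and *Nr1d2*, against −0.0027 over all genes tested. The score rests mostly on *Per1* (log2 fold change −0.615), *Per2* (−0.35) and *Nr1d1* (0.31). Those of *Per3* (0.0054), *Dbp* (0.065), *Ciart* (−0.061) and *Nr1d2* (0.072) were near 0. *Cry1* and *Cry2*, which E-boxes also drive and which were lower with MCH, are on neither side of the score.

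Of 29 other genes of the clock pathway, all tested, 1 was DE lower and none higher without a block (0.207% and 0.0267% of all genes), with a median log2 fold change of −0.020. With the replicate block 3 were DE, all lower (2.25% of all genes). *Usp2*, a deubiquitinase that acts on clock proteins, was 63.5, 63.6, 58.9 and 62.75 CPM in vehicle replicates 1 to 4 and 47.9, 42.5, 47.3 and 48.3 CPM in MCH replicates 1 to 4. It fell from 62.2 ± 2.19 to 46.5 ± 2.67 CPM (SD, n = 4), by 0.42 on the log2 scale (standard error 0.050, adjusted *P* = 0.0135 without and 1.97e-05 with the replicate block, edgeR), which was the 11th lowest *P* value of all genes. Without vehicle replicates 1, 2 or 4 or MCH replicates 3 or 4, each left out alone, its adjusted *P* value ranged from 0.0623 to 0.0811. With an offset for transcript length its log2 fold change was −0.29 (adjusted *P* = 0.587, edgeR). The others were *Nfil3*, a repressor at D-boxes, at 33.6 ± 8.27 CPM in vehicle-treated and 24.4 ± 6.70 CPM in MCH-treated wells, and *Bhlhe40*, a repressor at E-boxes, at 27.7 ± 3.64 and 22.5 ± 2.99 CPM. Their log2 fold changes were −0.46 and −0.30 (adjusted *P* = 0.667 and 0.515 without, and 8.59e-05 and 0.00573 with the replicate block, edgeR). The wells overlapped in both genes over all 8, and each same-numbered pair was lower with MCH. The highest log2 fold changes of these 29 genes were 0.30 for *Arntl2* and 0.27 for *Rorb*, at mean levels under 2 CPM and with adjusted *P* values of 0.873 and 0.986 in edgeR without a block. *Arntl*, the partner of *Clock*, had −0.049, and the 6 kinases of the list, which include the casein kinases that phosphorylate PER proteins, had −0.047 to 0.081.

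The *Per* genes were set beside 12 other genes that respond to CREB. Of these 12, 11 had log2 fold changes below 0 (51.0% of all genes), and the median was −0.39 (range −1.05 to 0.031), with *Per1* under it, *Per2* near it and *Per3* above it. Of the 12, 4 were DE lower without a block (0.207% of all genes) and 9 with the replicate block (2.25%). The study named several of them, *Fos*, *Nr4a1* and *Sik1* among them, from these same libraries, so the counts are not independent evidence. *Fos* and *Nr4a1* had log2 fold changes of −0.91 and −1.05, and *Sik1*, a kinase that restrains CREB coactivators, had −0.63, close to the −0.615 of *Per1*. Their adjusted *P* values in edgeR were 0.00492, 0.126 and 0.0078 without a block and 7.03e-08, 1.48e-06 and 2.82e-06 with the replicate block. Across the 8 wells, which share the sets and the treatments, the log2 CPM of *Per1* was most like that of *Zfp948* (Pearson's r = 0.993), *Nr4a1* (0.987) and *Homer1* (0.983). That of *Dbp* was most like *Cd63* (0.992), *Gypc* (0.988) and *Csgalnact1* (0.987), none of which was DE in either fit (adjusted *P* = 0.888 to 1.00, edgeR). These correlations, the highest of 14961 for each gene, are a description.

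Between the sets, each taken over the wells of both treatments, 4 of the 10 clock genes did not overlap, against 29.6% of all genes, and these values are given with no test because the sets were read from the same counts. *Per3* was 2.24 to 3.99 CPM in replicates 1 and 2 and 4.935 to 5.95 CPM in replicates 3 and 4, and *Dbp* was 4.38 to 5.51 and 6.52 to 7.89 CPM. *Nr1d2* was 35.4 to 37.99 CPM against 39.45 to 46.3 CPM, and *Ciart* went the other way, at 3.33 to 4.57 against 2.32 to 2.80 CPM. The astrocyte markers given above, all 5 of them summed, were higher in the same wells as *Per3*, *Dbp* and *Nr1d2*, as were those of the oligodendrocyte lineage (56.9 to 67.1 against 125 to 146 CPM) and of fibroblasts and vessels (14.8 to 20.3 against 46.2 to 50.0 CPM). Those of neurons (6732 to 7095 against 6109 to 6329 CPM) and of inhibitory neurons (1855 to 2049 against 1634 to 1785 CPM) were lower there, as *Ciart* was, and their part in these differences was not tested. Within each treatment *Per1*, *Cry2* and *Nr1d1* parted by set as well. The log2 difference of replicates 3 and 4 from replicates 1 and 2 was −0.26 for *Per1* (standard error 0.038), −0.11 for *Cry2* (standard error 0.028) and 0.24 for *Nr1d1* (standard error 0.045). None of the 10 genes was DE for a different response to MCH in the 2 sets (interaction term, edgeR). Of all genes tested, 0.0267% were DE for it (0.00668% lower and 0.0201% higher). An unadjusted *P* value under 0.05 was reached by 1 of the 10 genes, *Per3*, and by 1137 of all 14962 genes (edgeR). DESeq2 called 0 of the 10 for this term, and its share over all genes was not computed. The interaction of *Per3* was 0.59 on the log2 scale (standard error 0.27, adjusted *P* = 0.643, edgeR).

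**Figure D5:**
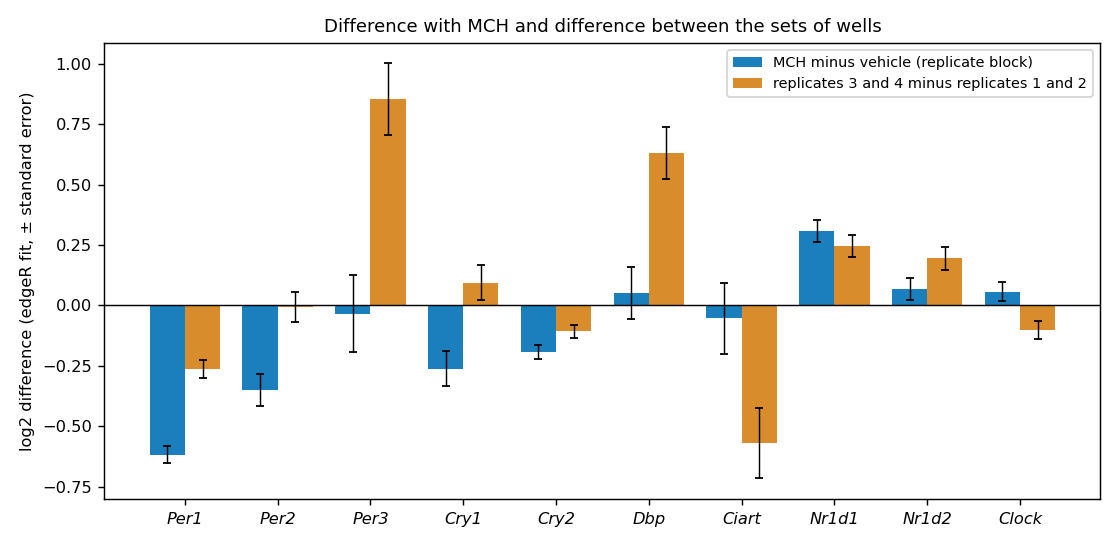
Log2 difference of MCH minus vehicle with the replicate block (blue) and of replicates 3 and 4 minus replicates 1 and 2 (orange) for the 10 clock genes, from edgeR fits, with standard errors. *Per1*, *Per2*, *Cry1*, *Cry2* and *Nr1d1* have larger differences with treatment than between sets, and *Per3*, *Dbp*, *Ciart*, *Nr1d2* and *Clock* the reverse.

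At the level of transcripts, the reads of *Per1* lay mainly on the transcript whose annotated start, 69098948, is 1 base from the upstream start shown above and which held 78.6% to 88.1% of them. It had 3295 ± 290 estimated counts with vehicle and 2199 ± 473 with MCH (SD, n = 4), a log2 fold change of −0.68. The transcript that starts at 69095217 held 8.29% to 13.5% of the reads and had 356.5 ± 63.1 and 289 ± 48.3 counts and a log2 fold change of −0.39. Neither *Per1* window above belongs to that start. The transcript that starts at 69100152, the downstream start shown above, held 0.95% to 3.2% of the reads of *Per1*, and the 1 at 69100158 held 0%. For *Per2*, *Cry1*, *Cry2* and *Nr1d1*, 1 transcript held at least 99.0% of the reads in every well. The 35 annotated transcripts of the 10 genes included 20 that passed the filter, of which 0 were DE without a block and 0 with the replicate block in edgeR and 7 had an unadjusted *P* value under 0.05 without a block, against 4.4% of the 33527 transcripts tested. No transcript of any gene was DE in either of these fits, so the 0 of the clock genes does not set them apart.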

How the data were processed

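RNA of 8 wells was sequenced as poly-A, stranded libraries. The authors mapped and quantified the reads on GRCm38, through salmon as run by nf-core/rnaseq. The deposited gene table holds estimated counts per gene, 9.13% of them not whole, and the deposited transcript files hold estimated counts, lengths and TPM per transcript. Totals were 26083936 to 31844861 per well, and intervals cover the spread between wells. Genes were named with GENCODE vM21, which may not be the authors' annotation.

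Counts were rounded and fitted in R 4.3.3 with edgeR 4.0.16 (TMM, filterByExpr by treatment, robust quasi-likelihood *F* test, Benjamini–Hochberg adjustment, threshold 0.05). The standard error is the log2 fold change over the square root of *F*. log2 CPM used a prior count of 2. DESeq2 1.42.0 and limma 3.58.1 were alternatives, with other filters, size factors, a length offset, blocks and single wells left out. The fits were tested on simulated data. In their deviations from the treatment means, same-numbered wells correlated at 0.445 to 0.545, wells of the same set with different numbers at 0.475 to 0.521, and wells of different sets at −0.548 to −0.438. Every same-numbered pair passed the minimum of 0.1 set for pairing. These values separate the sets and do not separate the numbers within a set, and blocks on either were fitted. Groups come from the sample titles, and dose, time and cultures from the methods. Named genes were the 10 members, pathway genes that were DE in a main or blocked fit or among the 2 lowest and 2 highest, the 3 genes most correlated with *Per1* and with *Dbp*, *Mchr1*, *Pmch*, *Fos*, *Nr4a1* and *Sik1*. *Arntl* was added after its values were seen. Members and lists were chosen with earlier results of these data known.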

Additional observations from a re-analysis of the deposited data

How the results depend on the processing

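The number of DE genes was 35 without a block. It was 157 with DESeq2, 596 with the replicate block, 668 with the set block, 6 with the length offset, and 4 to 29 with a well left out. Among the 10 clock genes, 0 DE became 3 with DESeq2 (*Per1*, *Per2* and *Cry2*), 5 with either block, and 0 or 1 with a well left out (*Per1* without MCH replicate 1). Of the 29 other pathway genes, 1 DE became 3 with either block, 0 with the length offset (*Usp2*, −0.29, adjusted *P* = 0.587 in edgeR), and 0 to 1 with a well left out. Fits within replicates 1 and 2 and within replicates 3 and 4, chosen after seeing the data, gave 269 and 189 DE genes, 2 and 4 clock genes and 2 and 3 other pathway genes. In these sets *Per1* was below vehicle without overlap relative to 8 and 9 of the other 9 clock genes, against 5 over all 8 wells and 5 to 6 with a well left out. The share over all genes was 70.9% over all 8 wells and was not computed within the sets. With 2 wells per treatment in a set, wells part more readily, so the counts within sets cannot be compared with that over all 8 wells. The difference of the *Per* genes from the E-box and REV-ERB genes was −0.44 in mean log2 CPM. Taken from mean log2 fold changes instead, it was −0.42 with DESeq2 size factors in edgeR and −0.31 with the length offset. The median log2 fold change of the *Per* genes was −0.35 to −0.34 under the other settings over all 8 wells, −0.40 to −0.32 with a well left out, and −0.36 and −0.42 within the sets. The sign of the log2 fold change turned in 3 genes. *Per3* was −0.086 with limma voom, −0.035 with the replicate block, −0.038 with the set block, −0.36 within replicates 1 and 2, and −0.20 to 0.22 with a well left out. *Dbp* was −0.13 within replicates 1 and 2 and −0.073 to 0.20 with a well left out, and *Ciart* was 0.0076 within replicates 3 and 4 and −0.19 to 0.15 with a well left out, against −0.061 in the fit without a block and −0.35 with the length offset. The cause of these changes was not tested. Apart from the 5 clock genes, *Nfil3* and *Bhlhe40*, the replicate block changed no call among the named clock genes. Counts were lowest in *Per3*, *Dbp* and *Ciart*, at 65 to 228 per well, and at this depth their standard errors were 0.23 to 0.33 without and 0.11 to 0.16 with the replicate block.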

Other observations

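Several other pathway genes differed between replicates 1 and 2 and replicates 3 and 4 of both treatments, and these were chosen after their values were seen. *Hlf*, a D-box factor of the *Dbp* family, was 3.73 to 6.34 CPM in replicates 1 and 2 and 10.4 to 12.25 CPM in replicates 3 and 4. *Rorb*, an activator at ROREs, was 0.581 to 1.25 and 2.23 to 2.77 CPM, and *Bhlhe41* was 3.99 to 4.99 and 6.61 to 8.71 CPM. *Nfil3* went the other way, at 29.1 to 42.9 against 17.9 to 27.6 CPM, so that the 3 D-box factors of the list, *Tef*, *Hlf* and *Nfil3*, all parted by set. In all, 11 of the 29 other pathway genes did not overlap between the sets, against 29.6% of all genes tested.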
